A study of Homo sapiens with 6 samples.

Results

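The 10 genes described here encode the subunits of the transcription factor NF-κB and its main inhibitors. They were taken from the gene table by symbol, as the 5 subunits (RELA, REL, RELB, NFKB1 and NFKB2), the 3 classical IκB proteins (NFKBIA, NFKBIB and NFKBIE), the nuclear IκB protein NFKBIZ, and TNFAIP3, which encodes A20. All 10 were among the 58735 genes listed and among the 15242 genes with enough counts to be tested. RNA-seq had been performed on MDA-MB-231 cells, a human triple-negative breast cancer line, as parent cells (3 libraries) and as adriamycin (ADR)-resistant cells, called ADRr, derived from them (3 libraries). The labels give the genotype as WT for parent cells and as ADR resistant for the derived cells, and both groups share the medium, with serum and antibiotics. According to the methods, ADRr cells had survived rising doses of ADR, an anthracycline also known as doxorubicin, and were then isolated as individual clones by limiting dilution, so differences between clones and effects of resistance cannot be told apart. The sources do not name a dose at harvest. The series text speaks of 3 time points that the sample labels do not name, and nothing says that the libraries of a group came from separate cultures, so the p-values measure only the spread between these libraries.

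NF-κB is a family of paired DNA-binding proteins. In resting cells the pairs are held in the cytoplasm by IκB proteins, and signals from cytokine receptors activate the IKK kinases, which mark IκB for ubiquitination and destruction so that RELA-containing pairs enter the nucleus. In the alternative pathway, the kinase NIK and IKKα lead to the trimming of the NFKB2 precursor p100 to p52, which pairs with RELB. Several of the genes are themselves NF-κB targets in other cells, among them NFKBIA, TNFAIP3, NFKB2 and RELB, and this feedback is known to limit or prolong the response.

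The promoter sequences are shown first because this known feedback acts through κB sites. Promoter windows, 250 bases before to 50 bases after a transcription start, were taken from RefSeq (GRCh38.p14) and searched on both strands for the κB consensus, the 10-base motif that NF-κB binds. Of the 10 genes, 8 matched the table by symbol, and RELB and NFKBIE were not in it. The consensus occurred in 7 of these 8 genes (87.5%), in at least one of their windows, and in 13.3% of all 27305 genes. Counted by window, it occurred in 9 of the 14 windows of the family and in 11.3% of all 35116 windows. For printing, overlapping or closely spaced matches were joined into 1 stretch, which does not affect these counts. RELA was the gene without a match, which says only that these letters are not in its window. Further stretches with matches before a start were found for NFKBIZ and NFKB2 and are not printed. The stretches below cover each of the 7 genes, with the matched bases in capitals, 5′ to 3′ on the strand of the gene.
NFKBIA: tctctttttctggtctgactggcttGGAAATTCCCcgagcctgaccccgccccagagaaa
NFKBIB: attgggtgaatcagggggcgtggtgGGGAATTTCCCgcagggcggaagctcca
NFKBIZ: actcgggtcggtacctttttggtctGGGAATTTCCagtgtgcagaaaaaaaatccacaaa
NFKB1: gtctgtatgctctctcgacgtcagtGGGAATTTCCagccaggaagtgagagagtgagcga
NFKB2: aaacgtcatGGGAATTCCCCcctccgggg
NFKB2: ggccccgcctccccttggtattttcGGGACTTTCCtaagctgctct
REL: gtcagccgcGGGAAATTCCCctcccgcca
TNFAIP3: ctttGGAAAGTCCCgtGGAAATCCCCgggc

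On GRCh38.p14 the NFKBIA stretch lies at chr14:35404796-35404855 on the minus strand, outside the annotated gene, and its match ends 72 bases before the RefSeq start. The other printed stretches lie on the plus strand. They are chr19:38899916-38899968 for NFKBIB, chr3:101827742-101827801 for NFKBIZ, chr4:102501285-102501344 for NFKB1, chr10:102394462-102394490 and chr10:102395659-102395704 for NFKB2, chr2:60881518-60881546 for REL and chr6:137867188-137867217 for TNFAIP3. The TNFAIP3 stretch and the first NFKB2 stretch lie wholly within annotated exons of those genes, and the REL match lies within an exon as well. The NFKBIB stretch and the second NFKB2 stretch lie inside those annotated genes too, partly in exons. The same core GGGAATTTCC stood before a RefSeq start of NFKB1, NFKBIZ and NFKBIB, whose counts moved in different ways between the groups, as given below. NFKB2 held the most matches, in more than one of its windows, and TNFAIP3 held a pair of matches separated by a few bases. A match is a description of letters and not evidence that a factor is bound.

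Total counts per library ranged from 15983985 to 18272314, and the TMM factors, which correct for differences in composition, from 0.987 to 1.01. Log2 CPM (counts scaled to the TMM-corrected library total, with a small count added) correlated across genes. The r was 0.989 to 0.993 within a group and 0.935 to 0.937 between groups, where genes are not independent replicates. The line markers VIM, CD44, EGFR, KRT8, KRT18 and AXL were expressed in both groups, and ESR1 and PGR, the hormone receptors that triple-negative cells lack, were at or near 0. Of 12 leukocyte markers, 8 were under 1 CPM in every library, including PTPRC, CD3E, MS4A1 and TYROBP, where CPM were scaled to the library total alone. TYROBP and MS4A1 had no counts at all. The summed level of the list was 62.1 to 67.9 CPM in parent cells and 96.3 to 103 CPM in ADRr cells, mostly from LAPTM5. The difference between the groups reached well beyond NF-κB, since 29.2% of tested genes were called higher in ADRr cells and 29.6% lower. Calls needed a fold change of 1.2 or more and an adjusted p no higher than 0.05 in edgeR's quasi-likelihood test (Benjamini-Hochberg, over all tested genes). By these calls, of the 4 leukocyte markers with enough counts to be tested, 2 were higher, 1 was lower and 1 was not called.

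Against this background, 7 of the 10 genes rose in ADRr cells, 2 fell and 1 was not called. RELB, NFKB2, REL and RELA rose among the subunits, NFKBIB and NFKBIE among the classical inhibitors, and TNFAIP3 rose as well. NFKBIA and NFKBIZ fell, and NFKB1 was not called. The libraries of the groups did not overlap for any of the 10 genes, with 8 higher and 2 lower in every ADRr library, where 34.5% of all tested genes were separated upward and 34.7% downward. The median log2 fold change was 0.60 over the 10 genes and -0.01 over all tested genes. The median absolute log2 fold change was 0.71 over the 10 genes and 0.46 over all tested genes. In RNA from whole cultures, a change in every cell and a change in the share of cells with high expression cannot be told apart, and neither protein nor nuclear location was measured.

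**Figure D1:**
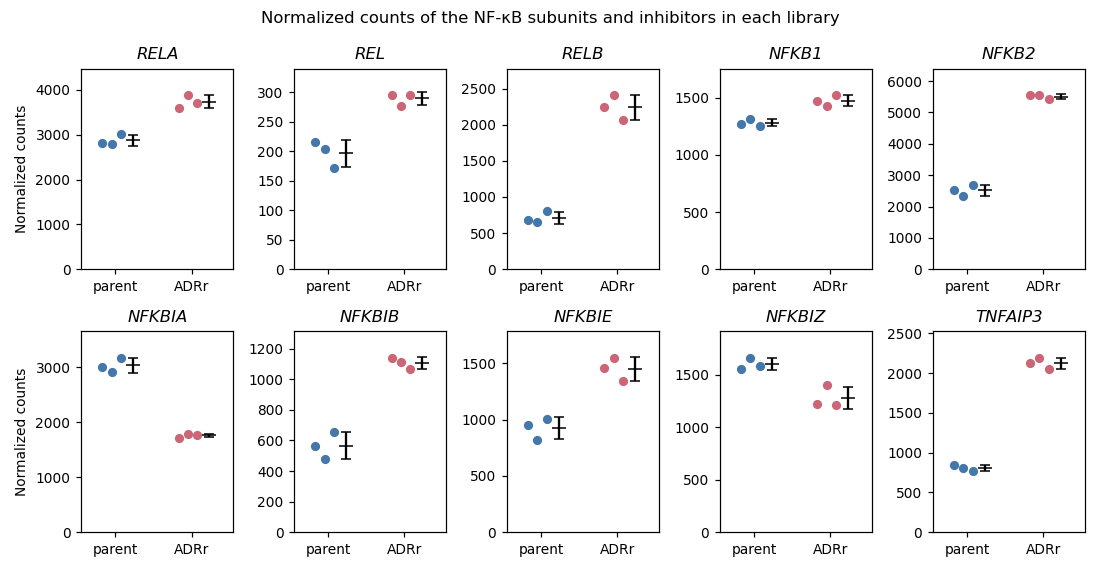
TMM-normalized counts (vertical axis, starting at 0) of each of the 10 genes in the 3 parent libraries (blue) and the 3 ADRr libraries (red), with the mean and SD of each group beside the points. The points of the groups do not overlap in any panel, and the ADRr points lie lower only for NFKBIA and NFKBIZ.

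RELB, the subunit that pairs with p52, had the largest change of the 10 genes (ENSG00000104856, chr19:45001430-45038198, plus strand). Its normalized counts were 678, 650.1 and 805 in the parent libraries, against 2242, 2414 and 2071 in the ADRr libraries. Every ADRr library was therefore far above the highest parent library. The log2 fold change was 1.65 (SE 0.077, edgeR adjusted p = 1.4e-14), a 3.15-fold increase, and 93.1% of tested genes had a smaller absolute change. NFKB2, which encodes the p100 precursor of p52, rose second-most among the subunits (ENSG00000077150, chr10:102394110-102402529, plus strand). It had 2515, 2338 and 2687 normalized counts in the parent libraries and 5545, 5565 and 5415 in the ADRr libraries. The ADRr libraries lay close together at about the same level, with a log2 fold change of 1.13 (SE 0.055, edgeR adjusted p = 3.0e-14). Both components of the alternative p52/RELB pair were thus higher at the RNA level, by more than 2-fold each. Processing of p100 cannot be read from RNA.

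RELA, which encodes p65, the main transactivating subunit of the classical pathway, changed less (ENSG00000173039, chr11:65653596-65663094, minus strand). Its normalized counts were 2819, 2792 and 3009 in parent cells and 3600.0, 3891 and 3716 in ADRr cells. The groups were separated by more than the spread within either, and the log2 fold change was 0.38 (SE 0.053, edgeR adjusted p = 1.6e-06), so that 43.2% of tested genes changed less. REL, which encodes c-Rel, a subunit best known from lymphocytes, had the lowest level per length of the family (ENSG00000162924, chr2:60881521-60931610, plus strand). It had 215, 204 and 171 normalized counts in the parent libraries and 296, 277 and 296 in the ADRr libraries, with a log2 fold change of 0.56 (SE 0.11, edgeR adjusted p = 1.4e-04). This was the least precise estimate of the 10, and it missed the threshold under one alternative, unfiltered limma-trend of log2(FPKM + 1) (adjusted p = 0.056).

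NFKB1, which encodes p105 and from it p50, the usual partner of p65, was the gene that was not called (ENSG00000109320, chr4:102501329-102617302, plus strand). It had 1271, 1314 and 1255 normalized counts in the parent libraries and 1473, 1426 and 1527 in the ADRr libraries. Every ADRr library was higher, but only slightly. The log2 fold change of 0.21 (95% confidence interval 0.08 to 0.33, edgeR adjusted p = 0.0044) passed on the p-value and stayed under the fold change threshold of 1.2. The precursor genes NFKB1 and NFKB2 therefore differed in how much they moved. Their FPKM ratio, NFKB2 over NFKB1, was 2.76, 2.48 and 2.99 in the parent libraries and 5.25, 5.44 and 4.95 in the ADRr libraries, with no overlap. FPKM (fragments scaled to gene length and library depth) were the deposited values, which allow levels of different genes to be set side by side.

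NFKBIA, which encodes IκBα, the inhibitor that is destroyed and resynthesized fastest, went the opposite way to the subunits (ENSG00000100906, chr14:35401511-35404749, minus strand). Its normalized counts were 3002, 2922 and 3174 in parent cells and 1719.6, 1783 and 1773 in ADRr cells. The ADRr libraries were tightly grouped and all below the lowest parent library. The gene fell by 42.0% (log2 fold change -0.79, SE 0.055, edgeR adjusted p = 1.8e-11). NFKBIB, which encodes IκBβ, had 562, 481 and 655 normalized counts in the parent libraries and 1142, 1114 and 1067 in the ADRr libraries (ENSG00000104825, chr19:38899700-38908893, plus strand). It was 1.95-fold higher, with a log2 fold change of 0.97 (SE 0.087, edgeR adjusted p = 1.4e-09). NFKBIE, which encodes IκBε, had 955, 819 and 1009 normalized counts in the parent libraries and 1461, 1551 and 1342 in the ADRr libraries (ENSG00000146232, chr6:44258166-44265788, minus strand), with a log2 fold change of 0.64 (SE 0.076, edgeR adjusted p = 1.1e-07). The classical inhibitors thus split, with IκBα lower and IκBβ and IκBε higher.

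NFKBIZ, which encodes IκBζ, a nuclear protein that works with p50 to switch on a subset of targets, had 1555, 1664 and 1582 normalized counts in the parent libraries and 1219, 1400.3 and 1215 in the ADRr libraries (ENSG00000144802, chr3:101827991-101861022, plus strand). The decrease was small, with a log2 fold change of -0.32 (SE 0.065, edgeR adjusted p = 1.5e-04), and the second ADRr library lay nearest to the parent libraries. TNFAIP3, whose product A20 edits ubiquitin chains and shuts the pathway off, had 842, 808 and 765 normalized counts in the parent libraries and 2124, 2195 and 2057 in the ADRr libraries (ENSG00000118503, chr6:137867188-137883312, plus strand). Its log2 fold change was 1.40 (SE 0.062, edgeR adjusted p = 6.4e-15), the second-largest of the 10 genes. The feedback inhibitors NFKBIA and TNFAIP3, both known targets of NF-κB, therefore moved in opposite directions.

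**Figure D2:**
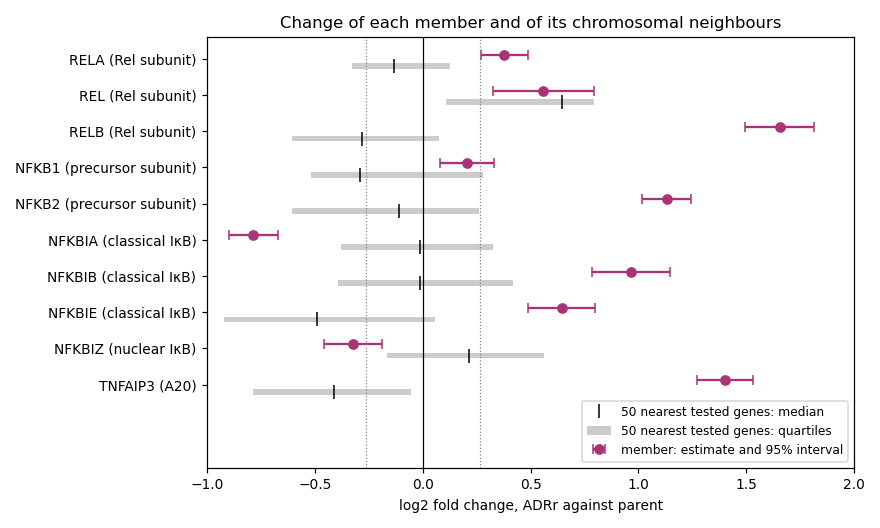
Log2 fold change of ADRr against parent cells (horizontal axis) for each gene, as edgeR's estimate with its 95% confidence interval (purple), above the median (black tick) and quartiles (grey bar) of its 50 nearest tested genes. Dotted lines mark a fold change of 1.2, and RELB, TNFAIP3 and NFKB2 stand farthest to the right of their neighbours, while REL and NFKB1 lie within the quartiles of their own.

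To show the chromosomal setting of each gene, the 50 nearest tested genes, 25 on each side, were summarized without a test. RELB was above all 50 of its neighbours, whose median log2 fold change was -0.28. NFKB2 and TNFAIP3 were each above 49 of 50, with neighbour medians of -0.11 and -0.41. RELA and NFKBIE were each above 43 of 50 and NFKBIB above 42. NFKBIA lay above 5 of its 50 neighbours, which had a median of -0.01. NFKBIZ lay above 12 of its 50 neighbours, which had a median of 0.21. REL and NFKB1 lay within the quartiles of their neighbours. The neighbours of REL on chromosome 2 had a median of 0.64, beside its own value of 0.56, and those of NFKB1 had a median of -0.29, with NFKB1 above 36 of the 50. The part of the region around REL in its change was not tested.

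Some genes share bases with members of the family, and the sources used here do not say whether counting took strand into account. SIRT2, a deacetylase gene on the opposite strand, overlaps NFKBIB by 163 bases and averaged 778 normalized counts in parent and 815 in ADRr libraries (log2 fold change 0.07, adjusted p = 0.48). The antisense gene AL357060.1 overlaps TNFAIP3 by 1046 bases and had 20.2 and 30.8 normalized counts, far fewer than TNFAIP3. AP001362.2 overlaps RELA by 9 bases on the opposite strand, with 45.2 and 34.9 normalized counts. RNU4-51P and AC010733.2, within REL, had no counts in any library.

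Per gene length, the order of the 10 genes differed between the groups. In parent cells NFKBIA was highest at 73.1 ± 3.0 FPKM (SD, n = 3), followed by NFKB2 and RELA, which overlapped at 32.0 ± 2.2 and 30.1 ± 1.2 FPKM. NFKBIE came next at 20.5 ± 2.2 FPKM, and NFKBIZ, NFKBIB and RELB then followed with overlapping ranges between 11.8 and 16.1 FPKM. NFKB1 (11.7 ± 0.28 FPKM), TNFAIP3 (9.11 ± 0.46 FPKM) and REL (0.855 ± 0.10 FPKM) were lowest, with the range of NFKB1 overlapping that of NFKBIB. In ADRr cells NFKB2 led at 70.5 ± 0.87 FPKM. NFKBIA, RELB and RELA followed at 42.5 ± 0.80, 42.4 ± 3.1 and 39.2 ± 1.5 FPKM, where the range of RELB overlapped those of NFKBIA and RELA, which did not overlap each other. NFKBIE (32.2 ± 2.2 FPKM), NFKBIB (27.3 ± 0.90 FPKM) and TNFAIP3 (24.1 ± 0.72 FPKM) came next. NFKB1 and NFKBIZ overlapped at 13.5 ± 0.50 and 12.4 ± 0.99 FPKM, and REL was again lowest at 1.26 ± 0.05 FPKM. The order depends on the length that is assigned to a gene. With the longest coding transcript as the length, an alternative chosen after the data had been seen, RELA ranked second in both groups, ahead of NFKB2 in parent cells.

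Summed over the family, the RNA for subunits rose while the RNA for classical inhibitors did not separate between the groups. The 5 subunits together gave 87.2, 84.1 and 92.9 FPKM in the parent libraries and 165.9, 171.4 and 163.1 FPKM in the ADRr libraries. The 3 classical IκB genes together gave 107.6, 100.3 and 114.6 FPKM in parent cells and 102.2, 104.7 and 99.2 FPKM in ADRr cells, so these ranges overlapped. The sum of inhibitors over the sum of subunits was 1.24, 1.19 and 1.23 in parent cells and 0.616, 0.611 and 0.608 in ADRr cells. The ratio was therefore 0.501 times that of parent cells, or 0.479 times with the longest coding transcript as the length. It depends on how genes are assigned, since NFKB1 and NFKB2, which encode the precursors p105 and p100, were counted as subunits only. NFKB2 alone went from 32.0 to 70.5 FPKM on average, and the RNA ratio does not measure inhibition. For the best-known pair, NFKBIA over RELA, the ratio was 2.45, 2.41 and 2.43 in parent cells and 1.10, 1.06 and 1.10 in ADRr cells. With the longest coding transcript as the length, NFKBIA averaged 64.7 FPKM in ADRr cells, below RELA at 67.3 FPKM.

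**Figure D3:**
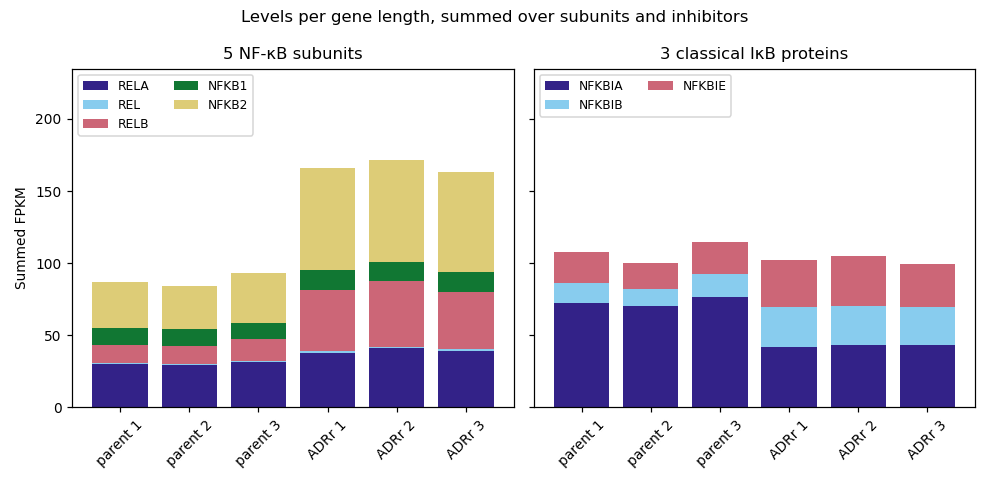
Deposited FPKM in each of the 6 libraries, stacked over the 5 subunit genes (left) and the 3 classical IκB genes (right), on a shared vertical axis that starts at 0. The subunit stacks reach 84.1 to 92.9 FPKM in parent and 163.1 to 171.4 FPKM in ADRr libraries, whereas the IκB stacks overlap between the groups and change in composition.

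The composition changed within both sums. Among the subunits, RELB went from 15.2 ± 0.95% to 25.4 ± 1.3% of the summed FPKM (SD, n = 3 each) and NFKB2 from 36.4 ± 0.83% to 42.2 ± 0.74%. RELA went from 34.2 ± 0.49% to 23.5 ± 0.64% although its own level rose, and NFKB1 from 13.3 ± 0.98% to 8.12 ± 0.50%. REL stayed the smallest share at 0.976 ± 0.15% and 0.757 ± 0.05%. RELB over RELA rose from 0.445 ± 0.03 to 1.08 ± 0.07. Shares and ratios depend on the length assigned to each gene. With the longest coding transcript as the length, RELB averaged 17.7 FPKM in parent and 56.05 FPKM in ADRr cells. RELA then averaged 51.6 and 67.3 FPKM, above RELB in both groups. Among the inhibitors, NFKBIA went from 68.0 ± 1.9% to 41.7 ± 1.4% of the summed FPKM, NFKBIB from 12.9 ± 1.1% to 26.8 ± 0.72% and NFKBIE from 19.1 ± 0.88% to 31.6 ± 1.4%. These shares were separated between the groups in all libraries, and they are given without a test because the parts of a sum depend on each other.

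The wider pathway was described with lists of 46 genes that act on the family, all of which were tested. Of these, 12 rose and 14 fell, beside 29.2% and 29.6% of all tested genes, and their median log2 fold change was -0.05. Among 18 IKK kinases and activators, 3 rose and 8 fell. The IKK complex itself moved little. CHUK, which encodes IKKα, fell from 1267 ± 180 to 1042 ± 85 normalized counts (SD, n = 3, log2 fold change -0.28, SE 0.084, edgeR adjusted p = 0.0055). IKBKB, which encodes IKKβ, and IKBKG, the scaffold NEMO, were not called, with log2 fold changes of 0.15 (adjusted p = 0.064) and -0.18 (adjusted p = 0.14) by edgeR. BIRC3, which encodes the ubiquitin ligase cIAP2, rose from 2324 ± 281 to 4832 ± 247 normalized counts (log2 fold change 1.06, SE 0.068). MAP3K14, which encodes NIK, rose with a log2 fold change of 0.44 (SE 0.071), and TRAF6, an adaptor ligase below interleukin-1 and Toll-like receptors, with 0.69 (SE 0.098). MAP3K8, the kinase TPL2 that is held by p105, fell with a log2 fold change of -1.01 (SE 0.11). TAB1, a partner of the kinase TAK1, fell with -0.69 (SE 0.092), and IKBKE with -0.55 (SE 0.060).

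Among 18 genes of ubiquitin editing and IκB destruction, 5 rose and 1 fell, beside 29.2% of all tested genes called higher and 29.6% lower. CYLD, a deubiquitinase that counteracts the pathway alongside A20, rose from 925 ± 26 to 2205 ± 33 normalized counts (log2 fold change 1.25, SE 0.059). RBCK1, which encodes HOIL-1 of the linear ubiquitin ligase, rose from 1929 ± 171 to 4546 ± 208 (log2 fold change 1.24, SE 0.061), while its complex partners RNF31 and SHARPIN, named after their values were seen, were not called. ITCH, an E3 ligase that works with A20, rose with a log2 fold change of 0.58 (SE 0.055). CUL1, of the ligase that destroys IκB, fell with -0.27 (SE 0.056). Among the 6 partners of A20, 3 rose and none fell at these thresholds.

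Among 10 other IκB proteins and modulators, 4 rose and 5 fell, beside the same 29.2% and 29.6% of all tested genes. Both atypical IκB genes listed fell, as NFKBIZ did. BCL3 fell from 970 ± 112 to 570.2 ± 36 normalized counts (log2 fold change -0.77, SE 0.084), and NFKBID fell with -0.67 (SE 0.13). ZC3H12A, which encodes Regnase-1, an RNase that degrades NFKBIZ and cytokine RNAs, fell from 1631 ± 106 to 623 ± 50 (log2 fold change -1.39, SE 0.073). PDLIM2 and COMMD1, which promote the turnover of p65, rose with 0.94 (SE 0.11) and 0.93 (SE 0.13), and the coactivator EP300 rose with 0.51 (SE 0.053). COMMD1 lies at chr2:61888724-62147247, near REL, whose 50 neighbours had a median log2 fold change of 0.64. The part of that region in the change of COMMD1 was not tested. For each of the genes called in these paragraphs, the adjusted p of edgeR was at most 0.05.

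Of 48 textbook target genes of NF-κB, 43 were tested. Of these, 30 rose, 8 fell and 5 were not called, beside 29.2% of all tested genes called higher and 29.6% lower. The median log2 fold change was 0.85, beside -0.01 over all tested genes. Both the 30 and the median include LTA, CXCL10, CCL2, MMP9 and SERPINB2. These genes passed the count filter only through their counts in ADRr cells. With at least 10 counts required in every library, 25 target genes were called higher and 8 lower, beside 30% and 30.5% of all genes tested then. BIRC3, BCL3, TNIP1 and TNIP3 are also in the pathway lists above. The 5 that were too low to test were VCAM1, TNF, PTGS2, NOS2 and BCL2A1. Cytokines (7 of 9 tested rose and 2 fell), chemokines (6 of 8 rose and 1 fell) and survival genes (4 of 6 rose and 1 fell) all held genes of both directions. All 4 tested enzyme and matrix genes rose, but MMP9 and SERPINB2 among them could only be called higher, given the filter. Of 3 growth genes, 2 rose and 0 fell. IL1A, an alarmin cytokine, rose from 351, 413 and 279.5 to 13322, 12609 and 13186 normalized counts (log2 fold change 5.23, SE 0.085). CCL5, a chemokine that attracts T cells, rose from 27.8, 15.1 and 12.7 to 286, 342 and 341 (log2 fold change 4.12, SE 0.19). SERPINB2, a protease inhibitor, had raw counts of 2, 0 and 3 in parent cells and 59, 53 and 87 in ADRr cells, and no fold is given because the parent counts are within the 3 counts that a count of 0 allows. Of 4 acute-phase genes, 2 rose and 2 fell. LCN2, which encodes an iron-scavenging lipocalin, and FTH1, the ferritin heavy chain, both named after their values were seen, rose with log2 fold changes of 0.85 (SE 0.059) and 0.73 (SE 0.066). SAA2 fell from 5770.1 ± 216 to 496 ± 44 normalized counts (log2 fold change -3.54, SE 0.066) and SAA1 from 17533 ± 1378 to 2698 ± 208 (log2 fold change -2.70, SE 0.062). These near-identical paralogs may share reads, so the split between them is uncertain. CSF1, a growth factor of macrophages, fell from 14627 ± 422 to 6527 ± 115 (log2 fold change -1.16, SE 0.046). The κB consensus was found in promoter windows of 20 of the 34 target genes in the RefSeq table (58.8%) and of 12 of the 41 pathway genes (29.3%), beside 13.3% of all genes.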

How the data were processed

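RNA-seq of parent and ADRr MDA-MB-231 cells (3 libraries each) was analysed from the processed tables. The authors mapped reads with HISAT2 2.0.5 to GRCh38 and counted them per gene with featureCounts 1.5.0-p3, and the submitters' processing notes also name fastp and DESeq2 1.20.0. The authors deposited whole-number counts without normalization and FPKM values made from them. The strand setting of the counting is not given in the sources used here, and the sample records and the methods describe different library kits. The coordinates printed for genes are those of the files (GRCh38), and exon lengths of the 10 genes were checked against GENCODE 29.

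The count analysis used edgeR 4.0.16 under R 4.3.3 (filterByExpr, TMM, quasi-likelihood test, Benjamini-Hochberg adjustment over 15242 genes). Normalized counts are TMM-scaled counts. The methods write the fold change threshold as Log2(1.2), which was read as a fold of 1.2, and a log2 fold change of 1.2 was tried as an alternative. Each SE was derived from edgeR's fit, as the absolute log2 fold change over the square root of the F statistic. The confidence intervals were built from this SE with a t quantile and include the spread between libraries. A count of 0 allows up to 3 counts, which covers counting error only. An exact permutation test of 3 against 3 libraries cannot go below p = 0.1 and was not used. For a symbol with more than one row, the row with the most counts was kept. Alternatives were DESeq2 size factors or library size alone, DESeq2 1.42.0, other filters, limma 3.58.1 on log2(FPKM + 1) or log2(FPKM + 0.1), a replicate block, each library left out and other fold thresholds. The scripts were tested on simulated data. The genes, the lists and the tests were chosen with earlier results of these data known. Named genes were the 10 genes, the IKK complex, MAP3K14, CYLD, BCL3, genes overlapping the 10, and in each list the 3 largest called increases and decreases whose higher group averaged 50 or more normalized counts. The value of 1 listed marker is not reported here.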

Additional observations from a re-analysis of the deposited data

How the results depend on the processing

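Of 150 estimates, 15 alternatives for each of the 10 genes, 149 kept the direction and the side of the p threshold. The exception was REL under unfiltered limma-trend of log2(FPKM + 1) (0.29, adjusted p = 0.056), and the same fit with a mean FPKM of at least 0.5 gave the same estimate and passed (adjusted p = 0.021). Log2 fold changes ranged from 1.59 to 1.75 for RELB, 1.08 to 1.18 for NFKB2, 1.31 to 1.43 for TNFAIP3 and -0.82 to -0.76 for NFKBIA. When the threshold was 1.2 on the log2 scale instead of a fold of 1.2, 2 of the 10 genes (RELB and TNFAIP3) were called higher and 0 lower, 2 pathway genes higher and 1 lower, and 17 target genes higher and 2 lower, beside 7.31% and 6.38% of all tested genes. Without the fold threshold, NFKB1 was called as well, giving 8 higher. A replicate block, with the replicate number as a covariate, called 7 of the 10 genes higher and 2 lower. Same-numbered libraries did not deviate together (r = 0.00735, -0.0213 and -0.0457). With 3 libraries per group and genes that are not independent, this cannot exclude a pairing by number. With the longest coding transcript as the length, an alternative added after the data were seen, the ratio of inhibitor to subunit sums in ADRr cells was 0.479 times that in parent cells, not 0.501. REL had the fewest counts of the 10 genes, 176 to 317 per library, and the largest SE, and the part of depth in this was not tested.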
